A study of Arabidopsis thaliana with 6 samples.

Results

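The set described here holds 9 Arabidopsis genes for phosphatases and other enzymes of phosphate scavenging, out of the 33554 genes measured: *PS2* (AT1G73010), *PEPC1* (AT1G17710), *PAP17* (AT3G17790), *PAP12* (AT2G27190), *PAP10* (AT2G16430), *PAP26* (AT5G34850), *GDPD1* (AT3G02040), *RNS1* (AT2G02990) and *PPCK1* (AT1G08650). They were picked by locus, and the set was chosen by the measured contrast of these libraries, since it was put together when the expression values of the mutant and the wild type were already known. Their values in that contrast are therefore a description and carry no test. The libraries came from dissected primary inflorescence apices of *vip3-1* plants, a T-DNA line of *VIP3* in the Col-0 background that the labels call null, and of wild-type Col-0 plants (WT), with 3 libraries for each genotype. VIP3 is a subunit of Paf1c, a complex that travels with RNA polymerase II. All plants were raised under short days (21°C) before a move to continuous light (16°C), and flowers past stage 4 were cut away. Each tube held 30 to 35 apices, and RNA from 2 of the 6 tubes of a genotype was pooled for each library. These pools were called technical triplicates, and separately grown cultures are not described, so the p-values below measure only the spread between such pools and a growth or harvest difference cannot be told apart from the genotype.

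Plants that run short of phosphate make enzymes that free it from organic matter in the soil, from old RNA and from membrane lipids, or that let metabolism go on with less of it. Purple acid phosphatases are metal-containing enzymes of the cell wall, the secreted fluid and the vacuole that cut phosphate from a wide range of esters. Phosphatases of the HAD superfamily act inside cells on small substrates such as pyrophosphate, phosphocholine and phosphoethanolamine. Secreted ribonucleases of the T2 family break down RNA, glycerophosphodiester phosphodiesterases split the head groups left over from phospholipids, and PEP carboxylase kinase switches on PEP carboxylase, which opens a route around phosphate-using steps of glycolysis. Much of this response is driven by the MYB factor PHR1, which binds a short DNA motif called P1BS.

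Counts per library lay between 51944079 and 53519921 in *vip3-1* and between 50040048 and 69033269 in WT. *VIP3* itself had 5.96, 7.41 and 7.30 CPM in *vip3-1* against 40.8, 41.7 and 40.1 CPM in WT, where CPM is a gene's count scaled to a common library size after TMM correction. All 12 markers of the meristem and the young flower were measured, and their summed level was 1594 to 1703 CPM in *vip3-1* and 1129 to 1422 CPM in WT, where 7 passed the test below as higher in *vip3-1* and 1 as lower (66.7% called, against 30.7% of all genes tested). Among them *WUS*, the stem cell gene of the shoot, was at 19.2 to 21.0 CPM in *vip3-1* and 13.7 to 17.2 CPM in WT. WT replicate 3 stood apart, with 422 genes more than 4-fold above the mean of the other WT libraries, against 33 and 36 such genes in the other WT libraries and 8 to 197 in *vip3-1*. The summed level of 12 older anther markers was 129 to 183 CPM in *vip3-1*, and 169.9, 169.7 and 1267 CPM in WT replicates 1, 2 and 3. In edgeR's quasi-likelihood test, with p adjusted by Benjamini-Hochberg, 0 of these 12 passed, 2 had an unadjusted p under 0.05, DESeq2 called 3 and limma on FPKM called 0. Calls of the lists below that change without WT replicate 3 are named with their list.

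The window from 250 bases before to 50 bases after the annotated start of each gene was searched for the P1BS motif GNATATNC, which reads the same on both strands. It was found in 5 of the 9 windows (55.6%), against 1716 of 27443 windows of all protein-coding genes (6.25%). The narrower form GGATATNC or GNATATCC, whose matches are all matches of GNATATNC, was found in 2 of the 9 (*PAP12* and *GDPD1*), against 1.80% of all windows. Of the 6 matches, 3 read GAATATTC, 2 read GAATATCC and 1 read GTATATAC. *PS2*, *GDPD1* and *PPCK1* had theirs before the gene start, while in *PAP12* and *RNS1* the match began 32 and 20 bases into the gene. These are matches of letters in the RefSeq TAIR10.1 genome and no binding was measured. The first 3 sequences below are the 250 bases before the starts of the genes with the largest fold changes of the set, written 5′ to 3′ towards the gene, with P1BS matches in capitals. *GDPD1* has 2 matches, *PS2* has 1 far from the start, and the stretch of *PAP17* has none.
*PS2*, chr1:27466349-27466598, minus strand: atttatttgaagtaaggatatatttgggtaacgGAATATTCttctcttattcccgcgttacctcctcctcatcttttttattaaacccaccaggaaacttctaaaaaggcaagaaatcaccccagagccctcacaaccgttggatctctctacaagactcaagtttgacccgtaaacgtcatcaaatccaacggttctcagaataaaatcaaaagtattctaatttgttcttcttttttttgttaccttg
*GDPD1*, chr3:350011-350260, minus strand: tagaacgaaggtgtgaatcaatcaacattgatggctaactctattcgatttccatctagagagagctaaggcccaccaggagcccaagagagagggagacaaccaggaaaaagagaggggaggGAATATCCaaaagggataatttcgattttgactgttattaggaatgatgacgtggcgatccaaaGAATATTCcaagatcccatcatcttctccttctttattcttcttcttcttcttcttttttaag
*PAP17*, chr3:6089131-6089380, plus strand: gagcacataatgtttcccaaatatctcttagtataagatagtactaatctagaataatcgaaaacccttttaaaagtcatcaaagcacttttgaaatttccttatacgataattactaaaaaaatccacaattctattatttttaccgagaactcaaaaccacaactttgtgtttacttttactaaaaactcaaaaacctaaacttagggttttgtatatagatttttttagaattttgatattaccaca

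The remaining matches of the set are shown as 30-base stretches, again with the motif in capitals, so that the letters around it can be compared. The *PPCK1* match lies 27 bases before the gene start and has the same 8 letters as that of *PS2*. The *PAP12* match has the same 8 letters as the first of *GDPD1*. The windows of *PEPC1*, *PAP17*, *PAP10* and *PAP26* had no match.
*PAP12*, chr2:11623569-11623598, minus strand: ataaaaatttgGAATATCCacttgcgatcc
*RNS1*, chr2:873514-873543, plus strand: caaaaggtacaGTATATACcataaatctcc
*PPCK1*, chr1:2752086-2752115, plus strand: ggcatcaaaagGAATATTCtcaagagtttt

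**Figure D1:**
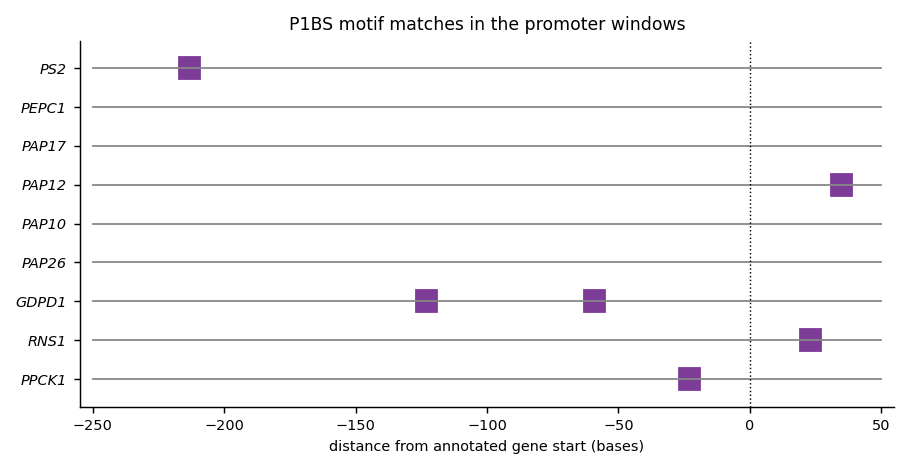
Position of P1BS matches in the 9 promoter windows, a line for each gene, with the distance from the annotated gene start in bases on the horizontal axis and the start as a dotted line. Each box spans the 8 bases of a match. *GDPD1* has 2 boxes, *PS2*, *PAP12*, *RNS1* and *PPCK1* have 1 each, and the lines of *PEPC1*, *PAP17*, *PAP10* and *PAP26* are empty.

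Across the apices, mRNA of *PS2*, *PAP17*, *GDPD1*, *RNS1*, *PAP12* and *PPCK1* was higher in every *vip3-1* library than in any WT library, while *PAP10*, *PAP26* and *PEPC1* had overlapping values. Of the 8 genes that passed the filter on low counts, 6 had an adjusted p under 0.05 in the fit over all genes, all of them higher in *vip3-1*. In the same fit, 30.7% of the 20690 genes tested were called, 14.6% as higher and 16.1% as lower, and 25.3% had every *vip3-1* library above every WT library. Since the set was picked with this contrast known, nothing is read from its count. The median log2 fold change (*vip3-1* over WT) was 1.33 over the 8 genes and −0.018 over all genes tested. In bulk apices, fewer cells of a type and less RNA per cell cannot be told apart.

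**Figure D2:**
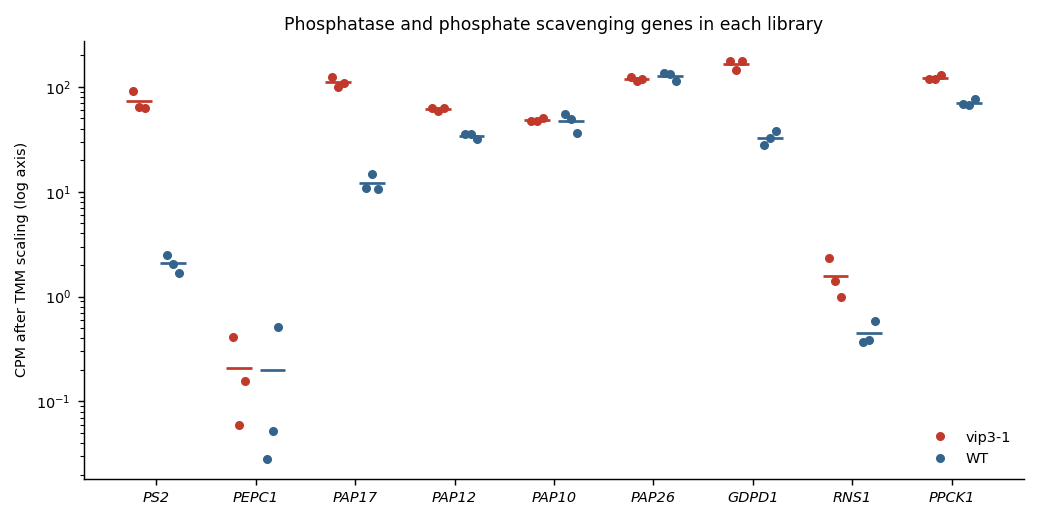
Level of the 9 genes in each library, in CPM after TMM scaling on a log axis, with *vip3-1* in red and WT in blue. Points are libraries in the order replicate 1, 2 and 3, and bars are the means of 3 libraries. *PS2* is the most widely separated, at 63.4 to 91.0 CPM in *vip3-1* and 1.69 to 2.49 CPM in WT, and the points of *PEPC1*, *PAP10* and *PAP26* overlap.

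*PS2* encodes a HAD-type phosphatase with pyrophosphatase activity and is a classic marker transcript of phosphate starvation in roots and shoots. Its level was 91.0, 63.8 and 63.4 CPM in *vip3-1* replicates 1, 2 and 3, against 2.49, 2.04 and 1.69 CPM in the WT replicates. All *vip3-1* libraries lay far above all WT libraries, and the lowest *vip3-1* value was 25.4 times the highest WT value. The log2 fold change was 5.12 ± 0.22 (SE, n = 3 and 3, 95% interval 4.59 to 5.66), the rank 27 among the 20690 genes tested when ordered from the most raised. Leaving out any library in turn gave values between 4.92 and 5.28. Replicate 1 was the highest *vip3-1* library for *PS2*.

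*PEPC1*, the phosphoethanolamine and phosphocholine phosphatase that is closest in kind to *PS2*, was barely measured. It had 21, 3 and 8 counts in *vip3-1* and 2, 3 and 27 counts in WT, too few to pass the filter, so no fold change is given. The values overlapped, with the highest count in WT replicate 3. Per length, *PS2* stood at 75.0 ± 18.3 FPKM in *vip3-1* and 2.13 ± 0.487 FPKM in WT (SD, n = 3 each), and *PEPC1* stood at 0.260 ± 0.250 FPKM in *vip3-1* and 0.217 ± 0.294 FPKM in WT. FPKM divides the fragments of a gene by its transcript length and by library depth, and it is the scale used here to set genes side by side.

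*PAP17* encodes a small purple acid phosphatase, also known as ACP5, whose mRNA is known to accumulate in phosphate-starved and in senescing leaves. It stood at 125, 99.7 and 108 CPM in *vip3-1*, against 10.9, 14.7 and 10.7 CPM in WT. The ranges did not come near each other, and the log2 fold change was 3.20 ± 0.16 (95% interval 2.82 to 3.58), the rank 121 of 20690. Of the 8 senescence markers listed, 7 were tested, 2 passed (28.6%, near the 30.7% of all genes) and both were lower in *vip3-1*, with a summed level of 83.0 to 119 CPM in *vip3-1* and 155 to 514 CPM in WT. *SEN1* was the largest part of that sum in WT replicates 2 and 3, at 99.4 and 407 CPM. It had 37.1 CPM in WT replicate 1 and 9.16 to 24.1 CPM in *vip3-1*. *SAG12*, the defining marker of that list, was at 0 to 0.0196 CPM in *vip3-1* and 0 to 0.114 CPM in WT. *NAP*, *WRKY53* and *ORE1* also overlapped between the genotypes, with *ORE1* higher in *vip3-1* replicates 2 and 3 than in any WT library. The rest of the list, *SEN1*, *SAG13*, *SAG21* and *SAG101*, did not overlap and was lower in every *vip3-1* library than in any WT library. The part of senescence in the *PAP17* value was not tested. *PAP17* overlaps the gene AT3G17800 on the other strand by 122 bases, and whether the fragments were counted by strand is not given in the sources used here. That neighbour had 62.6 CPM in *vip3-1* and 51.8 CPM in WT on average, a log2 fold change of 0.27 ± 0.065 (adjusted p = 0.0245, edgeR's quasi-likelihood test).

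*PAP12* and *PAP26* are the main acid phosphatases that phosphate-starved Arabidopsis secretes, and *PAP26* also supplies much of the acid phosphatase of the vacuole. *PAP12* had 63.4, 59.2 and 62.5 CPM in *vip3-1*, against 35.4, 35.9 and 31.5 CPM in WT, close together within each genotype and without overlap. Its log2 fold change was 0.85 ± 0.075 (95% interval 0.67 to 1.03). *PAP26* had 125, 115 and 119 CPM in *vip3-1*, against 136, 132 and 115 CPM in WT. These values overlapped, and the log2 fold change of −0.10 ± 0.081 had a 95% interval of −0.29 to 0.10. It was −0.17 ± 0.056 without WT replicate 3. The interval of *PAP12* lay wholly above that of *PAP26*.

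*PAP10* encodes an acid phosphatase that is held at the root surface under phosphate limitation. It had 47.8, 46.9 and 51.0 CPM in *vip3-1*, against 54.7, 49.1 and 36.6 CPM in WT. The WT values spread on both sides of the *vip3-1* values, with WT replicate 3 the lowest. The log2 fold change was 0.05 (95% interval −0.30 to 0.40), and it was −0.10 ± 0.071 without WT replicate 3.

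*GDPD1*, a plastid glycerophosphodiester phosphodiesterase that takes glycerol-3-phosphate from deacylated phospholipids (listed in RefSeq as *SRG3*), had 178, 146 and 176 CPM in *vip3-1*, against 28.2, 32.6 and 37.9 CPM in WT. Every *vip3-1* library was well above every WT library, with a log2 fold change of 2.34 ± 0.14 (95% interval 2.01 to 2.67). Its range over the libraries left out in turn was 2.24 to 2.45. The gene overlaps AT3G02030 on the other strand by 681 bases. That neighbour moved the other way, with 15.3, 12.5 and 15.2 CPM in *vip3-1* against 22.9, 24.1 and 34.6 CPM in WT (log2 fold change −0.92 ± 0.18, adjusted p = 0.0121, edgeR's quasi-likelihood test).

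*RNS1* encodes a secreted T2 ribonuclease induced by phosphate starvation and by wounding. It was a low transcript here, with 2.35, 1.40 and 0.998 CPM in *vip3-1*, against 0.368, 0.386 and 0.589 CPM in WT. No *vip3-1* value fell within the WT range, yet *vip3-1* replicate 1 stood well above the other *vip3-1* libraries. The log2 fold change was 1.82 ± 0.41 (95% interval 0.84 to 2.79), and 1.41 ± 0.38 without *vip3-1* replicate 1. Its adjusted p in the fit over all genes went above 0.05 when *vip3-1* replicate 1 or 2 or WT replicate 1 or 2 was left out. Of 9 wound and jasmonate markers, 5 were higher in *vip3-1* and passed, beside 14.6% higher among all genes, with a summed level of 1548 to 1753 CPM in *vip3-1* and 1081 to 1146 CPM in WT. The other 4 did not pass. Of these, *LOX2*, *OPR3* and *VSP1* overlapped between the genotypes. *LOX2* had 79.8, 24.2 and 75.0 CPM in *vip3-1* against 96.7, 69.1 and 236 CPM in WT. The part of these 9 markers in the *RNS1* value was not tested.

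*PPCK1*, the kinase that phosphorylates PEP carboxylase and lowers its inhibition by malate, had 119, 118 and 129.6 CPM in *vip3-1*, against 69.3, 66.9 and 76.1 CPM in WT. The libraries of each genotype lay close together and did not overlap, and the log2 fold change was 0.79 ± 0.076 (95% interval 0.61 to 0.97). *PPCK1* and *PAP12* both had log2 fold changes under 1, while those of *PS2*, *PAP17* and *GDPD1* were above 2.

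The order of the genes by FPKM was not the same in the 2 genotypes. In *vip3-1*, *GDPD1* came first with 119 ± 11.3 FPKM, then *PPCK1* with 96.2 ± 14.1, *PAP17* with 90.2 ± 13.3 and *PS2* with 75.0 ± 18.3 FPKM (SD, n = 3 each). The ranges of *GDPD1* and *PPCK1*, of *PPCK1* and *PAP17*, and of *PAP17* and *PS2* overlapped. The lowest *PS2* value, 64.2 FPKM, was just above the highest *PAP26* value, 64.0 FPKM. *PAP26* followed with 62.5 ± 1.31, *PAP12* with 38.5 ± 1.24 and *PAP10* with 34.1 ± 3.11 FPKM, of which the ranges of *PAP12* and *PAP10* overlapped. *RNS1* had 2.01 ± 1.09 FPKM, below all of these. In WT, *PAP26* came first with 66.0 ± 4.66 FPKM, overlapping *PPCK1* with 55.5 ± 7.34, and then came *PAP10* with 32.4 ± 5.39, *GDPD1* with 23.5 ± 4.44 and *PAP12* with 21.2 ± 1.55 FPKM, each overlapping the next. *PAP17* with 9.68 ± 1.68 and *PS2* with 2.13 ± 0.487 FPKM stood apart below them, and *RNS1* with 0.540 ± 0.121 FPKM overlapped *PEPC1*.

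*PAP17* held a different place within its family in *vip3-1* and WT. The FPKM of all 29 purple acid phosphatase genes summed to 406, 383 and 407 in *vip3-1*, against 261, 266 and 242 in WT. *PAP17* made up 25.9, 20.7 and 21.2% of that sum in *vip3-1*, against 3.48, 4.34 and 3.47% in WT. It was the most abundant family member in every *vip3-1* library, while in WT it ranked 7 to 10. *PAP26* was the most abundant in every WT library and the second in every *vip3-1* library, with 15.2 to 16.1% of the sum in *vip3-1* and 25.2 to 26.4% in WT, although its own FPKM overlapped between the genotypes. *PAP12* held 9.63 to 9.68% in *vip3-1* and 8.04 to 8.40% in WT.

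**Figure D3:**
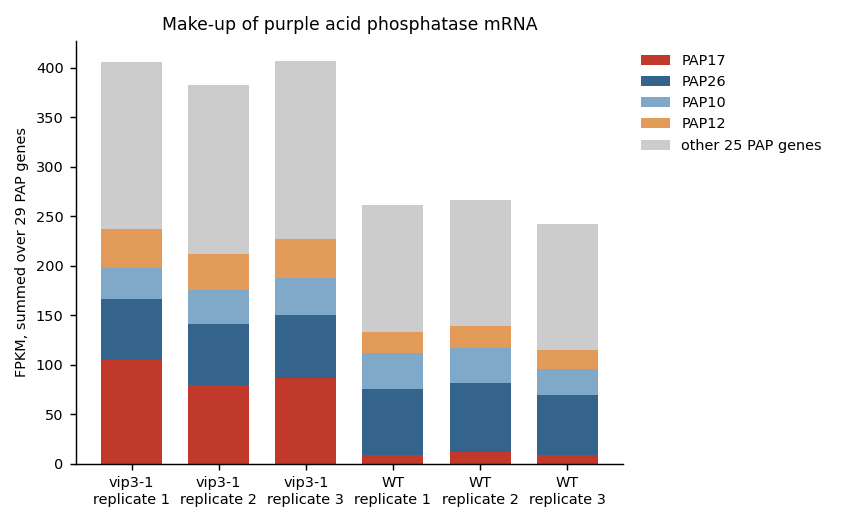
FPKM of the 29 purple acid phosphatase genes stacked for each library, with the *vip3-1* libraries on the left and the WT libraries on the right. Colours mark *PAP17*, *PAP26*, *PAP10* and *PAP12*, and grey the other 25 genes. The red *PAP17* part is 20.7 to 25.9% of the bar in *vip3-1* and 3.47 to 4.34% in WT, and the bars reach 383 to 407 FPKM in *vip3-1* and 242 to 266 FPKM in WT.

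The other 25 purple acid phosphatase genes, taken whole by family, were counted in the same fit. Of the 20 that passed the filter on low counts, 8 were higher in *vip3-1*, 2 were lower and 10 did not pass in edgeR (quasi-likelihood test, Benjamini-Hochberg adjusted p under 0.05), beside 14.6% higher and 16.1% lower among all genes tested. Their median log2 fold change was 0.68. The genes that were higher by more than 1 on the log2 scale were *PAP20*, *PAP25*, AT1G25230, *PAP8*, *PAP13* and *PAP14*, and *PAP18* and *PAP27* were higher by less. *PAP28* and AT1G13750 were lower, with log2 fold changes of −0.77 ± 0.12 and −0.75 ± 0.097. Without WT replicate 3, 14 were higher and 2 lower of 21 tested, with a median of 1.24, beside 18.9% higher and 19.6% lower among the 20928 genes of that fit. The 6 genes gained there were *PAP15*, *PAP16*, *PAP22*, *PAP23*, *PAP24* and *PAP29*. All 5 genes that did not pass the filter in the fit with every library were at or under 22 counts in each library.

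AT1G25230 had 23.0, 21.8 and 26.1 CPM in *vip3-1*, against 7.51, 7.76 and 8.01 CPM in WT. The libraries of each genotype were tightly grouped, and the log2 fold change was 1.61 ± 0.093 (adjusted p = 0.000450, edgeR). *PAP13* had 7.63, 7.47 and 6.63 CPM in *vip3-1*, against 2.76, 2.93 and 2.89 CPM in WT, with a log2 fold change of 1.34 ± 0.13 (adjusted p = 0.00169, edgeR). Both passed in all 14 alternative fits. *PAP8*, with 4.29, 2.82 and 2.58 CPM in *vip3-1* against 1.56, 1.16 and 0.951 CPM in WT, had a log2 fold change of 1.40 ± 0.30 (adjusted p = 0.0168, edgeR) and passed in 11 of 14.

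The others were close to the limit of detection. *PAP20* had 16, 41 and 53 counts in *vip3-1* and 0, 2 and 0 counts in WT, so that the ratio of summed counts per library size was 64.6, with a 95% counting interval from 17.5 to 540.0. *PAP25* stood at 1.14, 0.236 and 1.10 CPM in *vip3-1*, against 0.0708, 0.123 and 0.247 CPM in WT, and these ranges overlapped at *vip3-1* replicate 2 (log2 fold change 2.50 ± 0.73, adjusted p = 0.0435, edgeR). It passed in 5 of 13 alternative fits. *PAP14*, with 0.718, 0.374 and 0.665 CPM in *vip3-1* and 0.227, 0.228 and 0.304 CPM in WT, had a log2 fold change of 1.21 ± 0.37 (adjusted p = 0.0497, edgeR) and passed in 2 of 14, and with a replicate block its adjusted p was 0.0666. *PAP23*, at 0.718, 0.630 and 1.14 CPM in *vip3-1* against 0, 0.0527 and 0.247 CPM in WT, did not pass (adjusted p = 0.0567) but did with the block (adjusted p = 0.0365). *PAP6* and *PAP24* had their highest WT values in WT replicate 3, the library with the high anther marker level, and the *PAP24* log2 fold change was 2.45 without it and 0.40 with it.

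**Figure D4:**
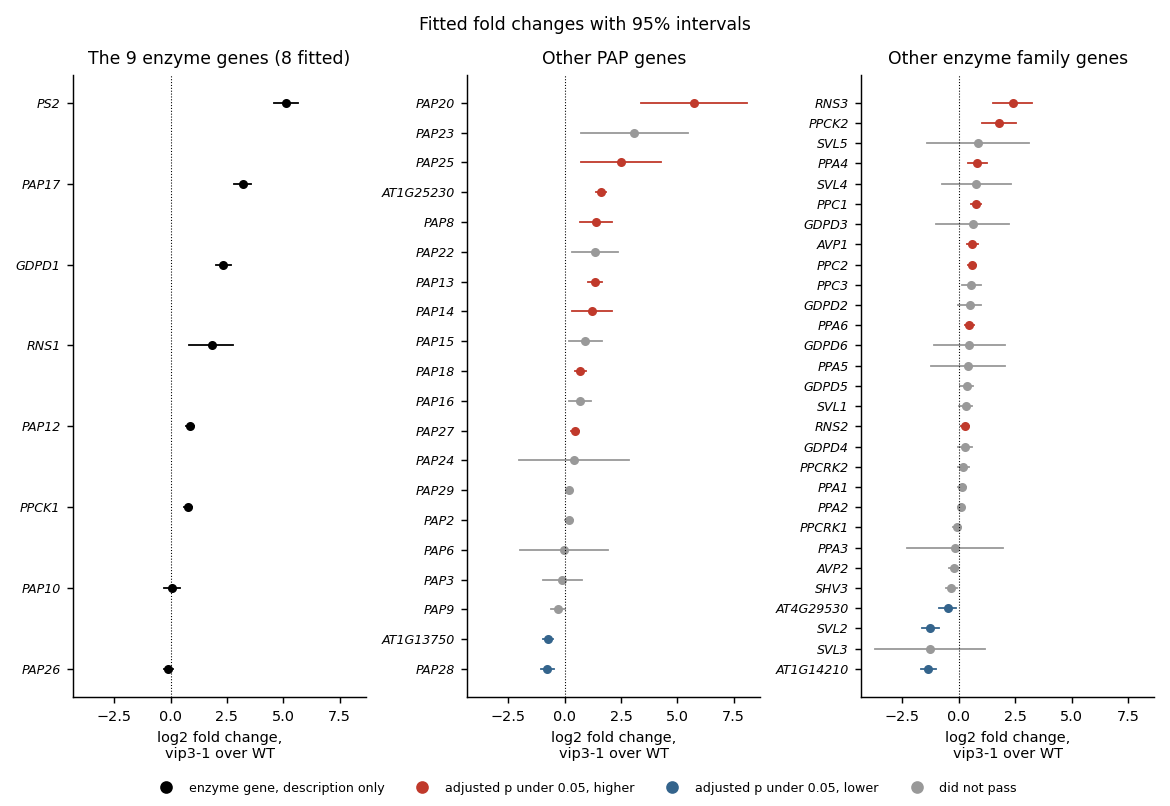
Log2 fold change of *vip3-1* over WT with its 95% interval for the 8 fitted genes of the set, for 20 other purple acid phosphatase genes and for 29 other genes of the enzyme families. Red and blue mark genes that passed as higher and lower, grey genes that did not pass and black the set itself, which is shown as a description. The fitted point of *PAP20* rests on 2 WT counts and depends on the prior count. The points of *PS2*, *PAP17* and *GDPD1* lie at 5.12, 3.20 and 2.34.

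Of 31 further genes of the glycerophosphodiester phosphodiesterase, T2 ribonuclease, PEP carboxylase, PEP carboxylase kinase, related kinase and pyrophosphatase families, 29 were tested, 8 were higher, 3 were lower and 18 did not pass (edgeR, adjusted p under 0.05), beside the same 14.6% and 16.1% among all genes. The median log2 fold change was 0.36. Without WT replicate 3, 13 were higher and 3 lower, beside 18.9% and 19.6% of all genes in that fit. It gained *GDPD4*, *GDPD5*, *PPA5*, *PPCRK2*, *SHV3* and *SVL1* and lost AT4G29530.

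Among the other GDPD genes 0 of 5 passed with edgeR, 1 had an unadjusted p under 0.05, DESeq2 called 1 and limma on FPKM called 0. Without WT replicate 3 edgeR called 2 of them, *GDPD4* (log2 fold change 0.41, adjusted p = 0.0130) and *GDPD5* (0.23, adjusted p = 0.0256), and *GDPD4* also passed with the replicate block (adjusted p = 0.0281). *GDPD2*, whose enzyme is of the same class as *GDPD1*, had 185, 259 and 264 CPM in *vip3-1*, against 188, 123 and 195 CPM in WT, so that the ranges overlapped (log2 fold change 0.49, 95% interval −0.03 to 1.00). Of the 6 genes of the related GPI-anchored group, whose products act in the cell wall, *SVL2* was lower with 45.1, 54.9 and 68.1 CPM in *vip3-1*, against 129, 131 and 143 CPM in WT (log2 fold change −1.26 ± 0.15, adjusted p = 0.00323, edgeR), and the other 5 did not pass. Of those, *SHV3* (log2 fold change −0.43, adjusted p = 0.00771) and *SVL1* (0.17, adjusted p = 0.0417) passed without WT replicate 3.

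The tested T2 ribonucleases all passed, but not in the same direction. *RNS3* had 2.02, 1.10 and 1.74 CPM in *vip3-1*, against 0.411, 0.246 and 0.266 CPM in WT (log2 fold change 2.38 ± 0.36, adjusted p = 0.00654, edgeR). AT1G14210 had 3.38, 3.25 and 3.09 CPM in *vip3-1*, against 9.42, 7.51 and 7.97 CPM in WT (log2 fold change −1.36 ± 0.13, adjusted p = 0.00198, edgeR). *RNS2*, the intracellular enzyme that turns over ribosomal RNA, had a small difference, with 74.6, 67.5 and 71.5 CPM in *vip3-1* against 56.6, 58.4 and 61.6 CPM in WT (log2 fold change 0.28 ± 0.068, adjusted p = 0.0264), and it passed in 8 of 14 alternatives.

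On the PEP carboxylase side of the set, the kinase gene *PPCK2* and the carboxylase genes *PPC1* and *PPC2* were higher in *vip3-1*. *PPCK2*, the second PEP carboxylase kinase gene, had 1.26, 1.16 and 1.35 CPM in *vip3-1*, against 0.453, 0.386 and 0.247 CPM in WT (log2 fold change 1.78 ± 0.31, adjusted p = 0.00900, edgeR). Per length it averaged 1.4 FPKM in *vip3-1* and 0.402 FPKM in WT, against the 96.2 and 55.5 FPKM given above for *PPCK1*. Of the carboxylases themselves, *PPC1* averaged 294 ± 5.73 CPM in *vip3-1* and 174 ± 19.2 CPM in WT, and *PPC2* 349.5 ± 16.5 CPM in *vip3-1* and 234 ± 11.9 CPM in WT (SD, n = 3 each), with log2 fold changes of 0.76 and 0.58 and adjusted p of 0.00392 and 0.00452 (edgeR). *PPC3* did not pass (log2 fold change 0.55 ± 0.18, adjusted p = 0.0571). *PPC4* had 3, 8 and 21 counts in *vip3-1* and 0 in every WT library, at least 12.5-fold higher against a floor of 3 counts over the WT libraries together, and was not tested.

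Among 9 pyrophosphatase genes, *AVP1* of the vacuolar proton pump, *PPA4* and *PPA6* were higher, with log2 fold changes of 0.60, 0.82 and 0.47, and AT4G29530 was lower with −0.50. *AVP1* was the most abundant of them, at 577 ± 42.2 FPKM in *vip3-1* and 376 ± 10.1 FPKM in WT (SD, n = 3 each). AT4G29530 did not pass without WT replicate 3 (adjusted p = 0.0682, edgeR). *PPA5* had 4.09, 2.92 and 4.11 CPM in *vip3-1* and 1.05, 1.19 and 6.18 CPM in WT, and its log2 fold change was 0.41 with WT replicate 3 and 1.72 without it.

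Beside the enzymes, 25 genes of phosphate sensing, transport and lipid replacement were listed as the wider response. Of the 23 tested, 16 were higher in *vip3-1* and 1, *SPX4*, was lower (log2 fold change −0.81 ± 0.15), beside 14.6% higher and 16.1% lower among all genes tested, with a median log2 fold change of 1.30 (edgeR, adjusted p under 0.05). The list was written with results of these libraries known and is not independent of them. *AT4*, a noncoding RNA that captures the microRNA of *PHO2*, had 155, 132 and 163 CPM in *vip3-1*, against 0.340, 0.509 and 0.171 CPM in WT (log2 fold change 8.76 ± 0.28, adjusted p = 0.000192, edgeR). The related *IPS1* had 393, 306 and 257 counts in *vip3-1* and 1, 0 and 1 counts in WT, a ratio of 561 with a 95% counting interval from 155 to 4642. The phosphate transporter *PHT1;4* had 33.0, 32.0 and 37.7 CPM in *vip3-1*, against 0.935, 1.33 and 0.323 CPM in WT (log2 fold change 5.29 ± 0.41, adjusted p = 0.00103, edgeR).

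In this list, the phosphate sensor genes *SPX1* and *SPX3* were higher by 2.77 ± 0.13 and 3.92 ± 0.45 on the log2 scale. The phosphate exporter gene *PHO1* was higher by 1.30 ± 0.24, its relative *PHO1;H1* had 22.9, 16.0 and 22.4 CPM in *vip3-1* against 11.4, 7.67 and 7.61 CPM in WT, and *PHF1*, which brings transporters out of the endoplasmic reticulum, was higher by 1.34 ± 0.14. Of the lipid genes, *MGD2* and *MGD3* of galactolipid synthesis were higher by 1.52 ± 0.19 and 3.47 ± 0.36, *SQD1* of sulfolipid synthesis by 1.29 ± 0.10, and the phospholipase genes *NPC4* and *PLDZ2* by 3.19 ± 0.60 and 3.09 ± 0.15. *SPX2* and *SQD2* were higher by 0.79 and 0.62. Adjusted p of these genes were at or under 0.0114 (edgeR). *PHR1* itself had 67.2, 64.0 and 68.5 CPM in *vip3-1*, against 57.0, 60.2 and 68.3 CPM in WT, and the ranges overlapped (log2 fold change 0.11 ± 0.083, adjusted p = 0.347, edgeR). It was 0.18 with an adjusted p of 0.0489 without WT replicate 3. Its relative *PHL1* had 9.79 CPM in *vip3-1* and 14.5 CPM in WT on average (log2 fold change −0.56 ± 0.17, adjusted p = 0.0503), and an adjusted p of 0.0384 with the replicate block and 0.0261 without WT replicate 3. *PHO2*, the ubiquitin-conjugating enzyme that limits phosphate uptake, had 269, 246 and 322 CPM in *vip3-1*, against 52.0, 66.0 and 93.6 CPM in WT (log2 fold change 1.99 ± 0.23, adjusted p = 0.00301).

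The P1BS motif was also counted in these lists. It was present in 12 of the 25 other purple acid phosphatase windows (48.0%), in 8 of 31 windows of the other enzyme families (25.8%) and in 9 of 25 windows of the wider response (36.0%), against 6.25% of all windows. The narrower form was in 1 of these 25, 0 of these 31 and 2 of these 25 windows, against 1.80% of all windows. The GNATATNC matches of *PAP5*, *PAP11* and *PAP19*, which were not tested for expression, lie in stretches of nearly the same letters. They may therefore not be separate occurrences. Among the tested purple acid phosphatases, 4 of 9 genes with the motif and 4 of 11 without it were higher in *vip3-1*, and 1 in each was lower. In the other enzyme families, 3 of 7 with it and 5 of 22 without it were higher, and 3 of the 22 were lower. In the wider response, 8 of 9 with it and 8 of 14 without it were higher, and 1 of the 14 was lower. *PAP14*, *SPX3*, *MGD2*, *SQD1*, *NPC4* and *PLDZ2* have the motif and passed as higher by more than 1 on the log2 scale, but are not printed. The stretches below are examples from 7 other such genes, with the motif in capitals, and the first 4 are other phosphatase and kinase genes whose enzymes match those of the set.
*PAP8*, chr2:399465-399494, minus strand: acctaaacatgGAATATTCagactacttct
*PAP25*, chr4:17175996-17176025, minus strand: tatttctattcGAATATTCtttaaaatcca
*PAP20*, chr3:19564462-19564491, minus strand: cccccccccccGAATATACtaagatacata
*PPCK2*, chr3:1221423-1221452, plus strand: ctccttaaacgGAATATTCtcttttttagt
*SPX1*, chr5:6802293-6802322, plus strand: cagagaaaaaaGGATATTCtaattagaaac
*AT4*, chr5:894545-894574, plus strand: tttggtaattgGCATATTCcttttagaaga
*PHT1;4*, chr2:16257139-16257168, plus strand: gttgttcggaaGAATATACcgaagtagcaa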

How the data were processed

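RNA-seq was made from 3 *vip3-1* and 3 WT libraries of shoot apices. The submitters' processing notes name Trimmomatic, Bowtie2 2.0.5, TopHat2 2.0.6, SAMtools 1.2, Cufflinks 2.1.1 and TAIR10. The deposited estimated counts are numbers of fragments for each gene, left unscaled by the authors. The design had taken them for whole counts, but 1059 genes hold values that are not whole (1.47% of all values), so all were rounded. The deposited FPKM were scaled by the authors by transcript length and mapped fragments. The gene positions in the authors' Cuffdiff table were compared with RefSeq TAIR10.1, where all 4951 genes compared lay on the same chromosome and 1736 shared a start or an end, so TAIR10.1 coordinates are printed. The means, fold changes, test scores, p-values and q-values of that table were not used. Strand setting and read layout are not given in the sources used here.

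Of 33554 genes, 6919 had no count and 20690 passed filterByExpr. The fit of *vip3-1* against WT used edgeR 4.0.16 under R 4.3.3 (TMM, genotype only, quasi-likelihood F-test, Benjamini-Hochberg adjustment over all genes tested), and a gene was called at an adjusted p under 0.05. CPM are counts over the TMM-scaled library size, ± is the SD of CPM or FPKM or the SE of a log2 fold change, and intervals are 95%. A group with 0 counts was set at a floor of 3 counts over its libraries together, ratios on 1 to 3 counts have an exact interval, and both cover counting error only. Replicates of a genotype differed beyond sampling noise (chi-square per degree of freedom 21.8 to 131). The fits were tested on simulated data.

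Members and lists were chosen with earlier results of these data known. Named genes are the 9 members, *VIP3*, the called genes of the 3 lists, with values where the absolute log2 fold change is at least 1, and for each member the 3 genes of highest Pearson r among those averaging at least 1 in log2 CPM. Genes that did not pass, such as *GDPD2*, *PHR1* and *PAP23*, were named after their values were seen, as were the values of called genes with smaller changes. Genes with no name in the reference are given by locus, and *AT4* is a RefSeq synonym of AT5G03545.

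Both genotypes carry replicate numbers 1 to 3 in the labels. Deviations from the genotype mean correlated at 0.217, 0.190 and 0.367 between same-numbered libraries, and at 0.289 between *vip3-1* replicate 2 and WT replicate 1. All other pairs with unlike numbers correlated negatively, from −0.442 to −0.0593. These values do not settle whether the numbers pair the libraries, and no shared batch or day is described. The block is therefore an alternative and is given where it changes a call. Alternatives were DESeq2 1.42.0, no TMM, no filter, at least 10 counts in every library, the block, limma 3.58.1 on log2(FPKM + 1) and log2(FPKM + 0.1), stricter thresholds and each library left out in turn. Figures were drawn with matplotlib 3.10.9 and pandas 2.3.3 in python 3.11.15.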

Additional observations from a re-analysis of the deposited data

How the results depend on the processing

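All fold changes of the 8 fitted genes of the set kept their direction in every alternative, apart from *PAP10*, which ranged from −0.10 to 0.18 on the log2 scale. *RNS1* ranged from 0.91 to 2.06 and passed in 9 of 14 alternatives. *PS2* was 4.59 with limma on log2(FPKM + 1). The number of the set called was 5 to 6 with a library left out. Over all genes, 6354 were called (47.7% of them higher). Library sizes without TMM gave 7056 (32.2% higher), with the median of all genes at −0.114. limma on log2(FPKM + 1) gave 3901, or 3297 without the filter, and on log2(FPKM + 0.1) it gave 4011. An adjusted p under 0.01 gave 2163, a log2 fold change of 1 or more in size gave 1814, and leaving out a library gave 2673 to 8055. Of the other purple acid phosphatases 10 were called, 6 with a log2 fold change of 1 or more in size, and 7 to 16 with a library left out. For the other enzyme families the 11 called became 7 at an adjusted p under 0.01, 4 with a log2 fold change of 1 or more in size, and 7 to 16 with a library left out. For the wider phosphate response the 17 called became 16 to 19 with a library left out, and ranged from 13 (at least 10 counts in every library) to 18 under the other settings. The narrower P1BS motif was in 2 windows of the set against 5. With the replicate block, 7388 genes were called, 6 of them in the set. The block lost *PAP14* and gained *PAP23*, *PHL1*, *AVP2* (adjusted p = 0.0488 in edgeR with the block), *GDPD4* (0.0281), *PPCRK2* (0.0484) and *SHV3* (0.0220), and it changed no other call of the lists. Of the genes gained, *PHL1*, *AVP2* and *SHV3* were lower in *vip3-1*, with log2 fold changes of −0.54, −0.21 and −0.33. *PAP23*, *GDPD4* and *PPCRK2* were higher, with 3.48, 0.28 and 0.20. Low counts limit what can be said of *PEPC1*, *RNS1*, *PAP14*, *PAP20*, *PAP25* and *PPC4*.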

Other observations

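Among 16938 genes averaging at least 1 in log2 CPM, the patterns nearest to those of the set over the 6 libraries were looked up by Pearson's r of log2 CPM, as a description with no test. The points are 3 libraries of each genotype, so any gene with a similar difference between the genotypes scores high, and 912 genes had r above 0.95 with *PAP17*. That number was 948 for *PS2*, 704 for *GDPD1*, 1050 for *PAP12* and 707 for *PPCK1*, so the nearest genes are a few of many. The nearest to *PAP17* were the phosphate sensor gene *SPX1* (r = 0.9997), AT5G11930 (r = 0.9997) and AT5G53048 (r = 0.9996). Nearest to *PS2* were AT3G16650 (r = 0.9991), *CYP79B2*, a cytochrome P450 of indole glucosinolate synthesis (r = 0.9989), and AT5G36210 (r = 0.9980). Nearest to *GDPD1* were AT2G41150 (r = 0.9998), *CPK2* (r = 0.9992) and the sulfolipid gene *SQD1* (r = 0.9988). For *PAP12* they were AT3G24860, AT1G08165 and the glycerol-3-phosphate permease gene *G3Pp1*, with r between 0.9979 and 0.9990. For *PPCK1* they were *PI4K GAMMA 4*, *LACS2* and *LPR1*, a ferroxidase gene of root growth under low phosphate, with r between 0.9976 and 0.9987. For *PAP10*, *PAP26* and *RNS1*, where 53, 41 and 73 genes had r above 0.95, the nearest were AT3G59950, AT5G42720 and AT1G14480, then AT5G07140, AT5G59305 and AT5G63040, and then *EMB1444*, AT2G18110 and *4CL3*, with r between 0.9814 and 0.9966.

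Of the 9 genes, 7 had their highest *vip3-1* CPM in replicate 1, the exceptions being *PAP10* and *PPCK1* with theirs in replicate 3. By FPKM, *GDPD1* and *PAP26* were also highest in *vip3-1* replicate 3, at 130.5 and 64.0 FPKM. The *PEPC1* value rests on 21 counts. How many of all genes were highest in *vip3-1* replicate 1 was not counted, so nothing is read from the number. The summed level of the 8 green leaf markers was also highest in replicate 1 within *vip3-1*, at 3452 CPM against 2217 and 2540 CPM in *vip3-1* replicates 2 and 3, while it was 4596 to 6401 CPM in WT, and 2 of the 8 were lower in *vip3-1* and passed edgeR's quasi-likelihood test, a share below the 30.7% of all genes called. Its part in the values of these genes was not tested. Without *vip3-1* replicate 1, the log2 fold change of *PS2* was 4.92 ± 0.17 and that of *PAP17* was 3.10 ± 0.16.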
